A study of Mus musculus with 35 samples.

Results

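Inmt, Tcf21, Pdgfra, Npnt, Mfap4, Gpx3 and Dcn are genes by which fibroblasts of the mouse lung are recognised, and their levels were followed in whole lung over a range of styrene doses. All 7 listed symbols were found in the platform annotation, with 11 probe sets among the 17097 genes measured: Npnt had 5 and each other gene had 1. The brightest probe set stood for Npnt, and its other probe sets served as a check. The genes were taken by symbol from a list that was drawn up with earlier results of these data known.

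Adult male C57Bl/6 wild-type mice were held singly in wire-mesh cages and breathed air (0 ppm) or styrene for 6 h at 1, 5, 10, 20, 40 or 120 ppm, and lungs were taken the next morning. Whole-lung total RNA was hybridised to 35 Affymetrix HT MG-430 PM arrays, 5 per dose, and each value is a log2 probe set signal, so that a difference of 1 is a doubling. The labels call the arrays of a dose biological replicates. However, the titles of 1 ppm replicate 5 and 5 ppm replicate 1 share an animal number, and whether every array had its own animal is not known.

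Lung fibroblasts make and maintain the connective tissue of the alveolar wall and of the sheaths around airways and vessels. Alveolar fibroblasts lie beside the alveolar epithelium, carry the PDGF receptor Pdgfra and depend in development on the transcription factor Tcf21. Adventitial fibroblasts lie around the larger vessels and airways and are rich in collagen-binding proteins such as decorin, the product of Dcn. In whole-lung RNA a lower signal can come from fewer cells of a type or from less RNA per cell, and these cannot be told apart.

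Promoter sequences are given for 3 genes whose dose patterns differed: Inmt, lower at 10 to 40 ppm, Npnt, lowest at 120 ppm, and Gpx3, higher at 120 ppm. Each is a window of 300 bases around the gene's start, most of it upstream, from RefSeq (GRCm38.p6), printed 5′ to 3′ on the strand of the gene. Inmt lies on the minus strand at chr6:55174941-55175240, Npnt on the minus strand at chr3:132950242-132950541, and Gpx3 on the plus strand at chr11:54902604-54902903. Capitals mark matches on either strand to TATAAA (the TATA box), CAGCTG (an E-box of the kind bound by basic helix-loop-helix factors), GGGCGG (the GC box) and CCAAT, and no letter served more than 1 motif.
Inmt: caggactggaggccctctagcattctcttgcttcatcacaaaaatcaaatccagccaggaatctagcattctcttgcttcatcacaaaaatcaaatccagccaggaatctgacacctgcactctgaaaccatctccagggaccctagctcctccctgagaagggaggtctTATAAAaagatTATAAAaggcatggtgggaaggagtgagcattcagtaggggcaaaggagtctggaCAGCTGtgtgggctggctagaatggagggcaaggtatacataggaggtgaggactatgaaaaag
Npnt: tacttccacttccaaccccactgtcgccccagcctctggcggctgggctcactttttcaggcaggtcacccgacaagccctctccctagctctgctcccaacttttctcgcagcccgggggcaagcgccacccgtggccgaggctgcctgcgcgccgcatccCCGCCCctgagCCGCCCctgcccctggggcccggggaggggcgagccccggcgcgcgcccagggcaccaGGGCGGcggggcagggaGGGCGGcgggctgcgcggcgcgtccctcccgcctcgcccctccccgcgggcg
Gpx3: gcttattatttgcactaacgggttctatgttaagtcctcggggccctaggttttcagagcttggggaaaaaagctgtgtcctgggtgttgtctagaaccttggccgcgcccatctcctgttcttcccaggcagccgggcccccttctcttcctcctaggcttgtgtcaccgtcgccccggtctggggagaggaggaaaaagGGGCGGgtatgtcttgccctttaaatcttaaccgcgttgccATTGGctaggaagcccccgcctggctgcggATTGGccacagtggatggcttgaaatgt
The Inmt window held 2 TATAAA and 1 CAGCTG matches and had a GC content of 47.7%. The Npnt window held 4 GGGCGG matches and had a GC content of 76.7%. The Gpx3 window held 1 GGGCGG and 2 CCAAT matches at a GC content of 56.3%. Among all 32851 RefSeq promoter windows of this length, 13.6% held TATAAA, 16.3% CAGCTG, 35.7% GGGCGG and 37.4% CCAAT, so each of these motifs is common. Tcf21 and Pdgfra also matched the promoter table, with none of the 4 motifs in the windows read for them, and Dcn and Mfap4 were matched to none.

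The arrays at 120 ppm stood apart from the other 30. Their poly-A spike-in probe sets averaged 7.93 to 8.81 log2 units per array, against 6.10 to 7.06 on all other arrays, and their brightest nonspecific-hybridisation control read 6.71 to 7.36, against 4.57 to 6.43. The median gene read 5.36 to 5.80 on the 120 ppm arrays and 5.81 to 6.03 elsewhere. The difference between 3′ and 5′ probe sets of Gapdh was -0.13 to 0.04 at 120 ppm and -0.19 to 0.10 at the other doses. No arrays were identical. Defining markers of lung were bright on all arrays: the mean over 6 alveolar type 2 genes was 12.52 to 12.92 at 120 ppm and 12.73 to 12.83 at 0 ppm.

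At 0 ppm the members spanned a wide range of signal. Inmt averaged 13.19 ± 0.09, Gpx3 12.03 ± 0.09, Mfap4 11.17 ± 0.33, Npnt 10.75 ± 0.22, Tcf21 10.16 ± 0.13, Dcn 10.10 ± 0.13 and Pdgfra 7.76 ± 0.20 log2 units (SD, n = 5 each). Probe sets bind with different strength, so these signals do not rank the genes by RNA amount. All members lay above the brightest nonspecific-hybridisation control of their array at every dose except Pdgfra at 120 ppm, where 4 of 5 arrays were below it. Inmt lay above log2 12 on all arrays and Gpx3 averaged above it at 0, 1, 40 and 120 ppm, a range where the array may saturate and differences may be understated.

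**Figure D1:**
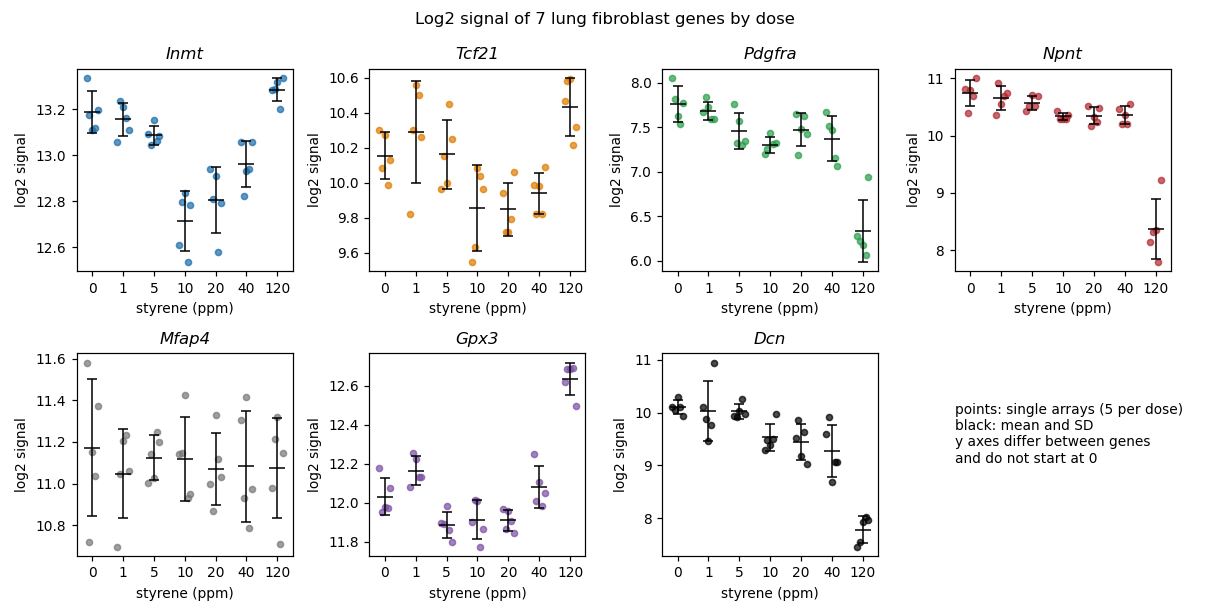
Log2 signal (y axis, a separate scale for each gene) of the 7 lung fibroblast genes at each styrene dose in ppm (x axis, not to scale). Points are single arrays and black marks are the mean and SD of 5 arrays; Npnt, Dcn and Pdgfra were lowest at 120 ppm, Inmt was lowest at 10 ppm, Gpx3 was highest at 120 ppm and Mfap4 overlapped at all doses.

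Tcf21, the basic helix-loop-helix factor of the mesenchyme, showed its lowest means at 10 and 20 ppm and its highest at 120 ppm. By dose from 0 to 120 ppm its means were 10.16, 10.29, 10.16, 9.85, 9.85, 9.94 and 10.44. At 120 ppm the 5 arrays read 10.47, 10.58, 10.59, 10.22 and 10.32, against 10.30, 10.09, 10.28, 9.99 and 10.13 at 0 ppm. Only 1 of the 120 ppm arrays fell within the range of the air-only arrays. Tcf21 was 0.28 higher at 120 ppm (SE 0.12, limma adjusted p = 0.0394 by Benjamini-Hochberg over all genes), a call that was lost on leaving out any of 0 ppm replicates 2, 4 and 5 or 120 ppm replicates 1, 2 and 3 (0.24 to 0.27). With the spike-in level of each array as a covariate the difference was 0.12 (adjusted p = 0.8). At 10 and 20 ppm the differences were -0.30 (adjusted p = 0.115) and -0.31 (adjusted p = 0.0971), and neither passed the threshold of 0.05.

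Pdgfra, the receptor through which PDGF-AA acts on fibroblasts, was lower at 10, 40 and 120 ppm, and lowest at 120 ppm. Its air-only arrays read 8.06, 7.81, 7.63, 7.54 and 7.77, its 10 ppm arrays 7.20, 7.25, 7.43, 7.31 and 7.33, and its 120 ppm arrays 6.27, 6.23, 6.18, 6.06 and 6.94. All 10 ppm and all 120 ppm arrays lay below the lowest air-only array. The measured difference at 120 ppm was -1.42 (SE 0.13, limma adjusted p = 2e-11), and because most arrays there were below the nonspecific control it is stated as at least 1.47-fold lower (the measured fold was 2.68). The Pdgfra difference was -0.46 at 10 ppm (SE 0.13, adjusted p = 0.0182) and -0.39 at 40 ppm (adjusted p = 0.0484), whereas -0.29 at 20 ppm did not pass (adjusted p = 0.168). The 20 ppm arrays ran from 7.18 to 7.65 and the 40 ppm arrays from 7.06 to 7.67, and both groups overlapped with the air-only arrays. The 10 ppm call was lost without 0 ppm replicate 1 (-0.38), and the 40 ppm call without any of 0 ppm replicates 1, 2, 3 and 5 or 40 ppm replicates 3, 4 and 5 (-0.42 to -0.31). The 40 ppm call was also lost with all probe sets in the fit (adjusted p = 0.0623), a trended and robust variance (0.0526) or the compared groups alone (0.0628).

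Npnt encodes nephronectin, a basement membrane protein and the ligand of the integrin that contains Itga8. It showed the largest measured decrease of the 7 genes. The 120 ppm arrays read 8.14, 8.33, 8.35, 7.80 and 9.22, against 10.82, 10.40, 10.80, 10.69 and 11.01 at 0 ppm. The groups were more than 1 log2 unit apart, and replicate 5 was the highest of the 120 ppm arrays for Npnt as for Pdgfra. Npnt was 5.2-fold lower at 120 ppm than at 0 ppm (log2 difference -2.38, SE 0.15, limma adjusted p = 4.19e-15; -1.40 with the spike-in level as a covariate, adjusted p = 0.000854) and 3.98-fold lower than at 40 ppm (-1.99, adjusted p = 4.15e-13). Its means at 0, 10, 20 and 40 ppm were 10.75, 10.34, 10.35 and 10.36, and the differences from 0 ppm, -0.41, -0.40 and -0.39, missed the threshold (adjusted p = 0.0817, 0.0826 and 0.0979). With the 120 ppm arrays left out of the fit, the 10 and 40 ppm differences passed (adjusted p = 0.00513 and 0.00748). At 1 and 5 ppm the arrays ran from 10.36 to 10.92 and from 10.43 to 10.71, within the air-only range of 10.40 to 11.01 but for the lowest at 1 ppm.

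The other 4 probe sets of Npnt moved the same way. At 120 ppm they differed from 0 ppm by -2.01, -1.62, -1.77 and -1.65, each past the threshold in a fit over all probe sets. The dimmest of them also passed at 10 ppm (-0.66, adjusted p = 0.0112) and 40 ppm (-0.53, adjusted p = 0.0488). At 10, 20 and 40 ppm the differences of all 5 probe sets were negative, between -0.26 and -0.66.

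**Figure D2:**
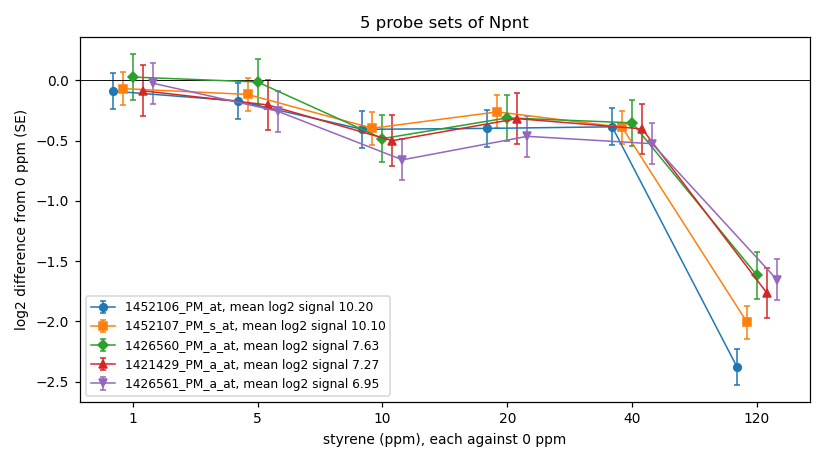
Log2 difference from 0 ppm (y axis, with SE) of the 5 Npnt probe sets at each styrene dose in ppm (x axis, not to scale); the legend gives each probe set's mean log2 signal over the 35 arrays. All 5 lay between -0.26 and -0.66 from 10 to 40 ppm and between -1.62 and -2.38 at 120 ppm.

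Dcn, the small leucine-rich proteoglycan that binds collagen fibrils, had a lower mean at each successive dose (10.10, 10.03, 10.02, 9.53, 9.44, 9.26 and 7.78 by dose) and passed the threshold at 20, 40 and 120 ppm. The air-only arrays read 10.11, 10.06, 10.30, 10.10 and 9.94, the 40 ppm arrays 9.60, 9.92, 8.68, 9.06 and 9.05, and the 120 ppm arrays 7.46, 7.54, 7.92, 8.02 and 7.96. All arrays at 20, 40 and 120 ppm lay below every air-only array, the highest 40 ppm array (9.92) by the least. The differences from 0 ppm were -0.66 at 20 ppm (SE 0.21, limma adjusted p = 0.031), -0.84 at 40 ppm (adjusted p = 0.00533) and -2.32 at 120 ppm (adjusted p = 8.76e-12), the last a 4.99-fold lower signal. Dcn was also 2.8-fold lower at 120 ppm than at 40 ppm (-1.48, adjusted p = 1.48e-07), and with the spike-in level as a covariate that difference was -0.76 (adjusted p = 0.285). The 10 ppm difference of -0.57 did not pass (adjusted p = 0.0716); there, replicate 5 read 9.98 and the other arrays at most 9.49. The 20 ppm call was lost without any of 0 ppm replicates 1 to 4 or 20 ppm replicates 3 and 5 (-0.67 to -0.55). Dcn at 40 ppm did not differ from 10 ppm past the threshold (-0.26, adjusted p = 0.543). At 1 ppm Dcn varied more than at any other dose, with arrays from 9.46 to 10.95.

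Mfap4, a glycoprotein that associates with elastic fibres, passed the threshold at no dose. Its means by dose were 11.17, 11.05, 11.13, 11.12, 11.07, 11.08 and 11.07, and the arrays of all doses overlapped between 10.70 and 11.58. At 120 ppm the difference from 0 ppm was -0.10, with a 95% interval of -0.38 to 0.19 (limma adjusted p = 0.528). Centring every array on its median turned this value to 0.29 (adjusted p = 0.0496). No pair of doses gave a call for Mfap4.

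Inmt encodes indolethylamine N-methyltransferase, which methylates tryptamine and related amines. It was lower at 10, 20 and 40 ppm and near its air-only level at 120 ppm. The air-only arrays read 13.33, 13.17, 13.11, 13.12 and 13.20, the 10 ppm arrays 12.61, 12.80, 12.84, 12.54 and 12.78, and the 120 ppm arrays 13.28, 13.29, 13.32, 13.20 and 13.33. Every array at 10, 20 and 40 ppm lay below every air-only array, and the 120 ppm arrays overlapped with the air-only range. The Inmt differences at 10, 20 and 40 ppm were -0.47, -0.38 and -0.22 (SE 0.07 each, limma adjusted p = 1.21e-05, 0.000272 and 0.0332). The last call was lost without any of 0 ppm replicates 1, 2 and 5 or 40 ppm replicates 2, 3 and 4 (-0.23 to -0.19), and with median centring, repeated quantile normalisation or the compared groups alone (adjusted p = 0.0716, 0.102 and 0.0562). The 20 ppm arrays ran from 12.58 to 12.94 and the 40 ppm arrays from 12.82 to 13.06, and at 1 and 5 ppm no array was below 13.04. Inmt was lower at 10 ppm than at 5 ppm (-0.37, adjusted p = 0.00133) and higher at 40 ppm than at 10 ppm (0.25, adjusted p = 0.0322). At 120 ppm the difference from 0 ppm was 0.10 (95% interval -0.05 to 0.24, adjusted p = 0.207), and it was 0.49 when every array was centred on its median (adjusted p = 2.2e-06).

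Gpx3, the secreted selenium-containing glutathione peroxidase, rose at 120 ppm. The 120 ppm arrays read 12.62, 12.69, 12.69, 12.69 and 12.50, against 12.18, 11.95, 11.98, 11.97 and 12.08 at 0 ppm. All 120 ppm arrays were above every array of the other doses. Gpx3 was 1.52-fold higher at 120 ppm than at 0 ppm (0.60, SE 0.07, limma adjusted p = 7.84e-10). From 1 to 40 ppm no difference from 0 ppm passed, with values from -0.15 to 0.13. With the spike-in level as a covariate the 120 ppm difference was 0.42 (adjusted p = 0.0342). Gpx3 at 5, 10 and 20 ppm was lower than at 1 ppm by -0.28, -0.25 and -0.26 (adjusted p = 0.0147, 0.0092 and 0.00591).

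**Figure D3:**
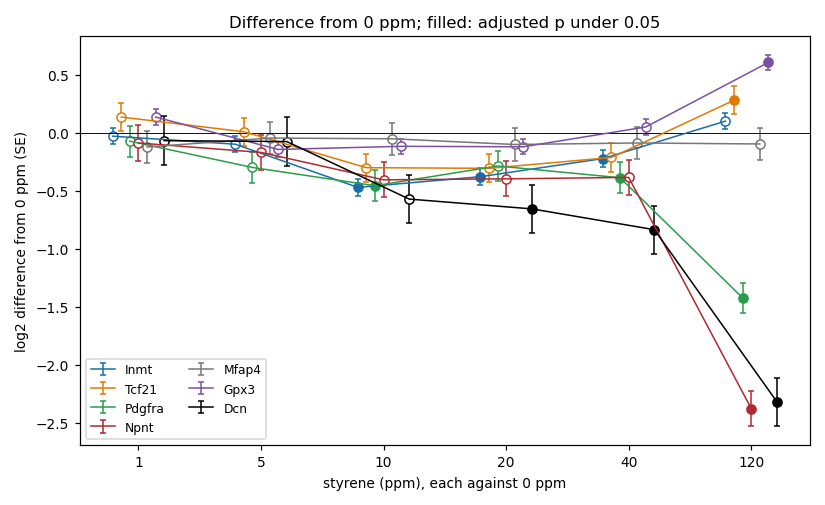
Log2 difference from 0 ppm (y axis, with SE) of each lung fibroblast gene at each styrene dose in ppm (x axis, not to scale); filled points have a limma adjusted p under 0.05. Npnt and Dcn reached -2.38 and -2.32 at 120 ppm and Pdgfra -1.42, while Gpx3 and Tcf21 were at 0.60 and 0.28.

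Set out by dose, none of the 7 genes passed at 1 ppm, where 0% of all genes were called (1190 of 17097 had an unadjusted limma p under 0.05), and none at 5 ppm, where 1.16% were called (1.13% higher and 0.0234% lower). At 10 ppm 2 of 7 were lower, where 6.62% of all genes were called lower, 5.17% higher and 11.8% in either direction. At 20 ppm 2 of 7 were lower, with 6.74% of all genes lower, 6.45% higher and 13.2% called. At 40 ppm 3 of 7 were lower, with 5.04% of all genes lower, 7.69% higher and 12.7% called. No member was called higher than at 0 ppm between 1 and 40 ppm.

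At 120 ppm 3 of 7 were lower and 2 higher, with 74.8% of all genes called, 31.9% lower and 42.9% higher, so the member count itself sits near the background. The members' median difference at 120 ppm was -0.10, against 0.16 for all genes, and at 10 ppm it was -0.41, against -0.02. Centring every array on its median moved the all-gene median at 120 ppm to 0.55 and gave 10650 genes higher and 4044 lower, against 7342 and 5450 without centring. With dim genes left out the split was 3049 higher and 4166 lower, and with the spike-in covariate 2124 higher and 2418 lower. Relative to 40 ppm, 3 of 7 were lower and 3 higher at 120 ppm (70.9% of all genes called, 31.1% lower and 39.8% higher), and with the spike-in covariate Npnt (-0.98, adjusted p = 0.0226) and Pdgfra (adjusted p = 0.0281) were the 2 that passed. For Pdgfra, under the nonspecific control on 4 of 5 arrays at 120 ppm, the decrease relative to 40 ppm was at least 1.12-fold without the covariate.

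Between 5 and 10 ppm, where 4.64% of all genes were called (3.14% lower and 1.5% higher), Inmt was the member that changed. Between 10 and 40 ppm (5.88% called, 1.64% lower and 4.25% higher) it was again Inmt alone. The rise of Inmt at 40 relative to 10 ppm was lost when any of 10 ppm replicates 1 and 4 or 40 ppm replicates 1, 4 and 5 was left out (0.20 to 0.25).

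Across the 30 arrays from 0 to 40 ppm, 5 of 7 genes had a negative slope past the threshold on log2(dose + 1 ppm), beside 12.9% of all genes with a negative one, 13.2% with a positive one and 26% with a slope in either direction. Per doubling of dose + 1 ppm Dcn fell by 0.17 (SE 0.03, limma adjusted p = 0.00027) and Npnt by 0.08 (adjusted p = 0.000191). On the same scale Pdgfra fell by 0.08 (adjusted p = 0.0021), Tcf21 by 0.07 (adjusted p = 0.00838) and Inmt by 0.07 (adjusted p = 0.00111). These falls were not all steady. At 10, 20 and 40 ppm Inmt averaged 12.71, 12.81 and 12.96, and Npnt 10.34, 10.35 and 10.36. Mfap4 (-0.01, adjusted p = 0.805) and Gpx3 (-0.02, adjusted p = 0.373) did not pass. Leaving out any single array kept 5 calls, and a slope on the untransformed dose called 2.

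The genes whose 6 differences from 0 ppm were most like the members' median, by the root mean square difference over 8014 genes with adequate signal, were Bcas3 (0.05), Tprgl, Smarcc2, Tm2d2 and Gpd1l. For Dcn the nearest gene was Dpt, encoding dermatopontin, a matrix protein that binds decorin, with a root mean square difference of 0.08. From 10 to 120 ppm Dpt differed by -0.47, -0.58, -0.75 and -2.26, against -0.57, -0.66, -0.84 and -2.32 for Dcn. The nearest genes to the others were Pias1 for Npnt (0.05), Gab1 for Pdgfra (0.08), Man2b1 for Inmt (0.04), Thap11 for Tcf21 (0.05), Rps26 for Mfap4 (0.04) and Csnk1e for Gpx3 (0.04).

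Of 28 other genes by which lung fibroblasts are recognised, 27 were measured. At 10 ppm 4 were higher and 5 lower, at 20 ppm 4 and 8, at 40 ppm 4 and 6, and at 120 ppm 11 and 8, with none called at 1 or 5 ppm. Among all genes 5.17% were higher and 6.62% lower at 10 ppm, 6.45% and 6.74% at 20 ppm, and 7.69% and 5.04% at 40 ppm. At 120 ppm, where 74.8% of all genes were called, the calls among these 27 genes lay near the background, and 7 genes passed with the spike-in covariate. Their median difference was -0.15 at 10 ppm and 0.18 at 120 ppm, against -0.02 and 0.16 for all genes. Slopes over 0 to 40 ppm were negative past the threshold for 12 and positive for 4, against 12.9% and 13.2% of all genes.

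Among the 13 alveolar fibroblast genes measured, Ces1d, a lipid-metabolising carboxylesterase, fell at every dose from 10 to 120 ppm (-0.99, -0.98, -0.80 and -1.69, limma adjusted p at most 0.00056). Itga8, the integrin subunit that pairs with nephronectin, was lower at 120 ppm (-1.48, adjusted p = 6.69e-07) but not past the threshold at 10 ppm (-0.27, adjusted p = 0.564). The chemokine gene Cxcl14 rose at 10, 40 and 120 ppm (1.06, 1.14 and 1.59). Its slope over 0 to 40 ppm was also positive (0.28, limma adjusted p = 2.91e-06). G0s2, an inhibitor of triglyceride lipase, fell by 0.50 at 10 ppm. Plin2, a coat protein of lipid droplets, rose by 0.35 at 20 ppm and 0.44 at 40 ppm (adjusted p = 0.00587 and 0.00075).

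Among the 14 adventitial genes, Htra3, a secreted serine protease, fell at 10 and 40 ppm (-0.68 and -0.83) and by at least 2.08-fold at 20 ppm, where 1 of 5 arrays was under the nonspecific control. Clec3b, encoding tetranectin, fell at 20 ppm (-1.11) and by at least 2.07-fold at 40 ppm, again with 1 array under the control. Neither passed at 120 ppm (0.27 for Htra3 and -0.38 for Clec3b). Clec3b averaged 7.60 at 0 ppm, and the brightest nonspecific control averaged 7.16 at 120 ppm, so little of a fall could be read there. Ccl11, the eosinophil attractant eotaxin, was under the control on all 5 air-only arrays and at least 1.15-fold higher at 10 ppm (adjusted p = 2.63e-08), where 2 of 5 arrays were under it too. At 20 ppm Ccl11 also passed (adjusted p = 0.000642), but 4 of 5 arrays there were under the control and no fold is given. Cd248, likewise under it on all air-only arrays, passed at 20 ppm with 3 of 5 arrays there under it too, and was at least 1.17-fold higher at 40 ppm and at least 3.02-fold higher at 120 ppm. Mfap5 and Col14a1 were lower at 120 ppm (-1.19 for Mfap5, and at least 1.16-fold for Col14a1). Dpt, the gene nearest to Dcn, is also on this list. It differed from 0 ppm by -0.75 at 40 ppm (limma adjusted p = 0.000143) and by -2.26 at 120 ppm.

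Genes of activated fibroblasts included several that were higher where members were lower. At 10 ppm 5 of 9 measured were higher and none lower, where 5.17% of all genes were higher, with a median of 0.73 against -0.02 for all genes. Timp1, a metalloproteinase inhibitor, was higher by 3.43, smooth muscle actin (Acta2) by 1.00 and fibronectin (Fn1) by 0.75 (adjusted p at most 5.3e-05). The matrix glycoprotein gene Tnc, under the control on all air-only arrays, was at least 2.51-fold higher (adjusted p = 4.41e-11). Postn, Lox, Runx1 and Cthrc1 of this list did not pass at 10 ppm. Their means there were 8.98, 8.27, 8.32 and 5.22, against 8.44, 8.15, 8.46 and 5.61 at 0 ppm. Cthrc1 was under the control on all arrays of both doses. At 120 ppm 2 were higher, Timp1 by 2.53 and Acta2 by 1.20, and 4 were lower, among them Runx1 (at least 2.28-fold) and Fn1 (-0.82). There, 42.9% of all genes were higher and 31.9% lower, and 4 of the 9 averaged below the nonspecific control. Acta2 is also a smooth muscle gene: of the 6 other smooth muscle markers measured, 4 (Myh11, Cnn1, Des and Actg2) were higher at 10 ppm. The mean over that list, Acta2 included, was 7.63 to 8.14 per array at 10 ppm and 6.71 to 7.29 at 0 ppm. It was already 7.01 to 8.15 at 1 ppm and 6.96 to 7.89 at 5 ppm, though no gene of the list passed there. Fn1 is also among 5 genes of inflammatory monocytes, of which 3 were higher at 10 ppm (list mean 8.37 to 8.52 at 10 ppm, 7.62 to 8.05 at 0 ppm). The part of smooth muscle or monocytes in these results was not tested.

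Small leucine-rich proteoglycans other than Dcn were measured for 8 genes, of which 3 were lower and none higher at each of 10, 20, 40 and 120 ppm (6.62%, 6.74%, 5.04% and 31.9% of all genes lower). Of the 8 genes, 5 averaged below the nonspecific control at 0, 20 and 120 ppm, and 4 at 10 and 40 ppm. Ogn and Prelp were lower at 10 ppm (-0.90 and -0.62), and at 120 ppm Prelp (-1.31) and Bgn (-0.78) were lower while Ogn did not pass (-0.43, adjusted p = 0.148). Fmod made up 1 of the 3 at each dose, but it was under the nonspecific control on all arrays of the doses compared, so 2 of the 3 were genes above it. At 120 ppm its call did not hold after median centring. In Bgn no difference passed at 10 to 40 ppm, with values from -0.05 to 0.00.

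Among 8 genes of microfibrils and elastic fibres, 2 were higher and 2 lower at 10 ppm, and 5 higher and 2 lower at 120 ppm. The shares of all genes called were 11.8% and 74.8%. Emilin1 (1.96), Eln (1.64) and Loxl1 (1.52) rose at 120 ppm, and Fbln5 fell by 1.37. Of the PDGF system around Pdgfra, none of 5 measured genes passed at 10 or 40 ppm. At both doses 3 of them averaged below the nonspecific control. The ligand gene Pdgfa was not matched to a probe set with a single symbol and was not analysed. At 120 ppm the ligand gene Pdgfb (1.57) and the receptor gene Pdgfrb (0.59) were higher. Pdgfd and Pdgfrl passed as lower, but all 120 ppm arrays of both, all 5 air-only arrays of Pdgfrl and 3 of 5 of Pdgfd were under the control, and no fold is given. The direction of Pdgfd reversed with the spike-in covariate (1.17, not past the threshold). Of 10 other transcription factors of the mesenchyme none passed at 10 ppm, but 4 averaged below the control at both 0 and 10 ppm. At 120 ppm, where 6 averaged below it, Foxf1 was higher (0.78) and Nr2f2 lower (-0.62).

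**Figure D4:**
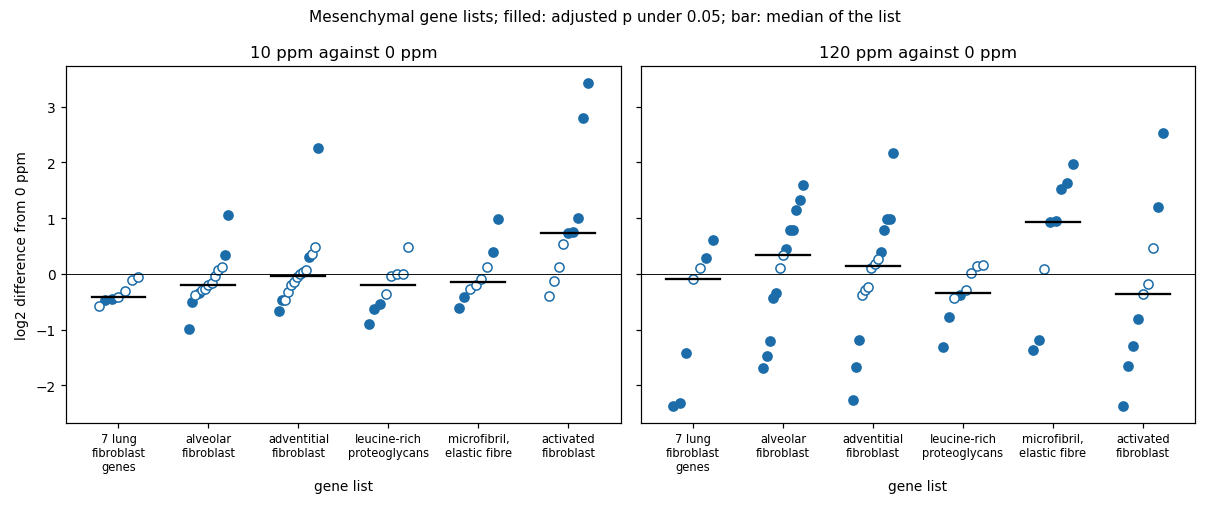
Log2 difference from 0 ppm (y axis) of single genes in 6 mesenchymal gene lists (x axis) at 10 ppm and 120 ppm. Filled points have a limma adjusted p under 0.05, bars are list medians, and genes under the nonspecific control are drawn at their measured difference; at 10 ppm the activated fibroblast list had a median of 0.73 and the 7 lung fibroblast genes -0.41.

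Markers of other lung cells were also called at doses where members were. At 120 ppm, where 31.9% of all genes were lower and 42.9% higher, 6 of 9 endothelial genes were lower and 2 higher (mean over the list 8.88 to 9.20 per array at 120 ppm, 9.82 to 10.01 at 0 ppm). All 5 club cell genes were lower (12.39 to 12.71 at 120 ppm, 13.20 to 13.35 at 0 ppm), as were 5 of 7 alveolar type 1 genes (10.77 to 11.17 at 120 ppm, 11.44 to 11.65 at 0 ppm) and 5 of 7 alveolar macrophage genes (7.54 to 8.01 at 120 ppm, 8.43 to 8.86 at 0 ppm). However, 4 of the 7 macrophage genes averaged below the nonspecific control at 120 ppm, against 0 at 0 ppm. At 10 ppm 3 of 5 club cell genes and 4 of 7 mesothelial genes were lower (6.62% of all genes). None of 9 endothelial genes passed there. The mesothelial list mean was 7.34 to 7.89 per array at 10 ppm and 8.05 to 8.52 at 0 ppm. However, it was 7.16 to 7.76 at 1 ppm, where no gene passed, and 7.97 to 8.64 at 40 ppm. Krt19 of that list averaged higher at 10 ppm (11.65) than at 0 ppm (11.09). Over 0 to 40 ppm, where 5 of 7 members had negative slopes, so did 6 of 9 endothelial genes (Pecam1, Cdh5, Kdr, Tie1, Tek and Ptprb) and all 5 club cell genes, against 12.9% of all genes. At 40 ppm Kdr (-0.59) and Tek (-0.53) were lower, as were all 5 club cell genes. Hepatocyte genes stood high on some arrays of several doses, air-only arrays among them. The highest list mean per array was 8.84, 9.23, 5.03, 3.99, 8.15, 4.04 and 4.23 from 0 to 120 ppm. The part of these shifts in the members' results was not tested.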

How the data were processed

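Per the labels, total RNA of whole lung was hybridised to arrays after the high-throughput 3′ IVT labelling kit. The authors deposited 1 normalised log2 signal per probe set and array; RMA and Partek stand in the submitters' processing notes with no version, and the background step is not given in the sources used here. No counts lie behind them, so the number of arrays limits precision. Scan and exposure batches are not given.

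The table held 45141 probe sets, 104 of them controls. The platform annotation gave 1 symbol to 28898, several to 551 and none to 15588. The brightest probe set stood for each of 17097 genes. limma 3.58.1 in R 4.3.3 was fitted with 1 mean per dose on 35 arrays (28 residual, 4.617 prior degrees of freedom). The slope on log2 of dose plus 1 ppm used 0 to 40 ppm. Tests were two-sided, adjusted by Benjamini-Hochberg over all genes, with a threshold of 0.05; "rose", "fell", "higher" and "lower" with an adjusted p, or in a count, refer to it. A fold is given as a bound, with dim arrays set at the brightest of 23 nonspecific controls, if any array of the lower group was under that control. The p-values measure the spread between arrays, which may be partly technical. limma was tested on simulated data. Figures used Python 3.11.15, numpy 2.4.6 and matplotlib 3.10.9.

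The members and gene lists were chosen with earlier results of these data known. Of each other list, up to 4 called genes per comparison with the largest differences were to be named; a gene named for one comparison is given at other doses too (Itga8 at 10 ppm, Acta2 and Fn1 at 120 ppm, Ogn and Bgn where uncalled, Clec3b and Htra3 at 120 ppm), and those values were chosen after they were seen. Uncalled activated fibroblast genes and Krt19 at 10 ppm were also named after their values were seen. The comparisons of 10 with 5 ppm and 40 with 10 ppm, the spike-in covariate and leaving out 120 ppm replicates 4 and 5 were added after seeing the data. Alternatives covered normalisation, probe set choice, dim genes, variance model, array weights, samples, thresholds and single arrays.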

Additional observations from a re-analysis of the deposited data

Results flagged for a closer look

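In 2 of the 49 member and dose groups, 1 array lay far from the other 4 by Dixon's test, which chance does in about 1 in 20 groups. Pdgfra at 120 ppm read 6.94 in replicate 5, the next array being at 6.27 and the lowest at 6.06. Dcn at 10 ppm read 9.98 in replicate 5, the next array being at 9.49 and the lowest at 9.30; without that array Dcn passed the threshold at 10 ppm.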

How the results depend on the processing

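Number of the 7 members past the threshold, leaving out each array in turn, ran from 1 to 3 at 10 ppm, 1 to 2 at 20 ppm, 1 to 3 at 40 ppm, 4 to 5 at 120 ppm, 6 to 6 for 120 against 40 ppm and 0 to 1 for 40 against 10 ppm. For the other lung fibroblast genes the ranges were 6 to 9, 10 to 13, 9 to 10, 17 to 20, 21 to 23 and 2 to 5 for the same comparisons. Npnt was gained at 10, 20 and 40 ppm without 0 ppm replicate 2. At 10 ppm, 4 members passed with array weights, with the compared groups alone, at an adjusted p of 0.1 or with the spike-in covariate, and 0 with a fold of at least 1.5. At 20 ppm 4 passed with the compared groups alone or at 0.1, and 1 with the fold. At 40 ppm 1 passed with the fold. For 120 against 40 ppm 3 passed with the fold and 2 with the covariate, which called 3282 of all genes, against 12116 without it. For 10 against 5 ppm 2 passed with the compared groups alone and 0 with the fold. For 40 against 10 ppm 0 passed with centring, the compared groups alone or the fold, and 2 with array weights. In that comparison centring called 693 of all genes and array weights 2708, against 1006 with neither. The slope on linear dose called 2.

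For the other lung fibroblast genes, the fold left 4 at 10 ppm, 6 at 40 ppm and 1 for 40 against 10 ppm; in that last comparison centring gave 2, array weights 9 and leaving out 120 ppm 8. The covariate gave 7 at 120 ppm and 6 for 120 against 40 ppm, where it called 4542 and 3282 of all genes. Reversed values were Fmod at 120 ppm, 0.015 with centring, and with the covariate Pdgfd at 120 ppm (1.17, and 1.685 against 40 ppm) and Meox2 (0.32, and 0.65 against 40 ppm). The causes were not tested; the covariate nearly coincides with the 120 ppm group, and the fold alternative only adds a size limit.

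The labels give array numbers no shared animal or day, and not every same-number pair correlated above 0.1, so the numbers were not taken as pairs: 53 of 105 did, from 5 of 21 for number 4 to 18 of 21 for number 5 (median r 0.246). Still, 17 of 35 arrays correlated best with their own number, a hint from the data, not the design. With the number as a replicate block, 3 members passed at 10 ppm and 3 at 20 ppm, Npnt among them (adjusted p = 0.0417 and 0.0428), and no count moved by over 1.5 times. Other normalisation, dim-gene, probe-set and variance settings left all other counts within that limit. Precision was limited by 5 arrays per dose and, for Pdgfra, by signals near the nonspecific controls.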
